A study of Mus musculus with 346 samples.

Results

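The 10 integrin subunit genes followed here in single mammary cells were Itga2, Itga3, Itga6, Itgav, Itgb1, Itgb3, Itgb4, Itgb5, Itgb6 and Itgb8. They were chosen by name from 25141 analysed genes, by mapping the Entrez number of each gene to its mouse symbol, and all 10 were found. The files analysed here hold 346 single cells from FVB/NJ mice, an inbred laboratory strain, at 3 stages of mammary development, and at the later stages the study worked with more cells than these. By their labels 144 cells came from pre-pubertal mice aged 2 weeks, 136 from pubertal mice of 4.7 to 4.9 weeks and 66 from adults of 10 weeks, with 8 mice behind each set, and no treatment was given. The study itself gives other numbers of mice per sort, which differ by stage, and describes repeated independent experiments. Per the study's methods, live cells of female mice that lacked the lineage proteins CD31, CD45 and Ter119 were sorted with antibodies to CD29 and CD24 and caught singly on Fluidigm C1 chips, and their polyadenylated RNA was amplified and sequenced. CD29 is the protein of Itgb1, and the labels call the cells total epithelium, for which no CD29 gate is stated here. For adult cells on another platform the study gives total epithelium as lineage-negative, CD24-positive cells. CD29 level divides its luminal (CD29 low) from its basal (CD29 high) sorts. Whether the cells here were gated on the protein of Itgb1 is thus not known.

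Integrins are receptors of the cell surface made of one α and one β subunit, which together bind proteins of the extracellular matrix and link them through adaptor proteins to the cytoskeleton. The β1 subunit pairs with many α subunits to bind collagen or laminin, α6β4 anchors the basal side of epithelial cells to laminin in hemidesmosomes, and the αv pairs bind matrix proteins with an RGD motif, with αvβ6 and αvβ8 best known for releasing active TGF-β from its latent complex. In the mammary gland the basal, myoepithelial layer sits on the basement membrane, and high surface levels of β1 and α6 integrin are used to sort it from the luminal layer.

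A cell was kept with at least 100000 reads on the analysed genes and at least 1500 of them detected, which left 116 pre-pubertal, 119 pubertal and 44 adult cells with 109387 to 1189155 reads each. No label ties a cell to a mouse, so each stage is 1 sample, no difference was tested, and each interval (95%) reflects counting error alone. The pre-pubertal cells went against their label. Of 12 pan-epithelial markers the median pre-pubertal cell had 0 with a read, against 9 at puberty and 6 in the adult, and Epcam was detected in 14.7% of them, against 98.3% and 95.5%. Of 16 Schwann cell markers the median cell had 11, 1 and 2, and their summed level in a cell was 583 to 70595 counts per 1000000 reads (CPM) at pre-puberty, with medians of 11178, 34.1 and 55.7 CPM. Among the later cells Ngfr was at 0 reads at puberty, and markers at 0 reads in the adult included Gfra3, Gap43 and Fabp7. At least 6 Schwann cell markers were detected in 115 pre-pubertal, 3 pubertal and 0 adult cells, and at least 7 of 15 fibroblast markers in 6, 9 and 3 cells. Of the fibroblast markers the median cell had 4, 1 and 2, and their median summed level was 7938, 12.2 and 711 CPM. Gene by gene this list was mixed. Against puberty 4 of its 15 genes were past a log2 ratio of 1 upwards and 5 downwards, where 21.4% and 24% of all genes were. Against the adult the counts were again 4 and 5 (31.7% and 28.9% of all genes). The largest at pre-puberty were Col3a1 (5283 CPM), Postn (2467 CPM) and Col1a2 (1155 CPM). The cells at 2 weeks are therefore called pre-pubertal cells and not epithelial cells, and what the difference in cell type contributes to each stage difference below was not tested.

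The upstream regions of 4 members are printed because the results turn on these genes. Itgb1 is the sort marker, and among the kept cells Itga2 and Itgb8 were read mainly in pre-pubertal ones. Itgb6 was read in the adult mainly in cells with RNA of the luminal keratins Krt8 or Krt18 and little of Krt14. Each region is the 250 bases before the annotated start in RefSeq on GRCm38.p6, 5′ to 3′ on the strand of the gene. Capitals mark matches on either strand to ACAANG, a loose form of the SOX family motif that allows any base at N. The family includes the Schwann cell regulator Sox10, and a match to such loose letters does not show a binding site. Itgb1 lies at chr8:128685404-128685653 (plus strand), Itgb8 at chr12:119238277-119238526 (minus strand), Itga2 at chr13:114932101-114932350 (minus strand) and Itgb6 at chr2:60722604-60722853 (minus strand).
Itgb1: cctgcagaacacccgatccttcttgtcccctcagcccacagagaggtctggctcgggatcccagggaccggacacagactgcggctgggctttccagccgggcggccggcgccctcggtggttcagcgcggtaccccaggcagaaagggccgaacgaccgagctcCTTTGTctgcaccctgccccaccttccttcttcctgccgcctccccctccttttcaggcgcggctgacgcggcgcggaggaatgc
Itgb8: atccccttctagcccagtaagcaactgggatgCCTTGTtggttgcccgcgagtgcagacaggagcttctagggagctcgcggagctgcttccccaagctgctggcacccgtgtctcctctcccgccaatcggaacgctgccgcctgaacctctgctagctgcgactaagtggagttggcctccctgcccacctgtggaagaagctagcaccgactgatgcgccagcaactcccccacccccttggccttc
Itga2: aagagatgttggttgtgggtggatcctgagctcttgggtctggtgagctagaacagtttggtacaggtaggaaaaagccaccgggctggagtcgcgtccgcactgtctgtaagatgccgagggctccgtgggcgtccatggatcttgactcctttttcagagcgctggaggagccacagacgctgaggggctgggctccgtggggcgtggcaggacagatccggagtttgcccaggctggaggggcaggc
Itgb6: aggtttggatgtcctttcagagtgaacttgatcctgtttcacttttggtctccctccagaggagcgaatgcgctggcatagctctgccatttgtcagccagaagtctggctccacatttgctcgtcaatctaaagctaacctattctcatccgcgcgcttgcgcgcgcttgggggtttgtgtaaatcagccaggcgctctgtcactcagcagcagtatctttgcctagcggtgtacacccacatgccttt
The Itgb1 and Itgb8 windows held 1 match each, and those of Itga2 and Itgb6 held 0, where 36.3% of 32851 promoter windows of this length held at least 1. G and C made up 68.0% of the Itgb1 window, 62.4% for Itgb8, 60.8% for Itga2 and 52.0% for Itgb6, against a median of 52.4% over all windows. Itgb1 had 21 CpG pairs, Itgb8 and Itga2 had 12 each and Itgb6 had 11, all above the median of 6. The AP-1 letters TGANTCA were in 0 of the 9 member windows (6.75% of all windows hold them). E-box letters, CANNTG, were found 2 times for Itgb8, 3 times for Itgb6 and 0 times for Itgb1 and Itga2, and 66.2% of all windows hold at least 1. Entries were found for 7 of the 10 members, and Itga6, Itgb3 and Itgb4 are named only.

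Itgb1 led the members at every stage. Per 1000 bases of gene length and per 1000000 reads (RPKM), it stood at 247 in pre-pubertal, 102 in pubertal and 150 in adult cells, and Itga6 and Itgav followed in that order each time. The order below them differed by stage. At pre-puberty it ran Itgb3 (25.6 RPKM), Itga2 (22.5), Itgb8 (16.1), Itgb4 (14.8), Itgb6 (7.79), Itgb5 (4.18) and Itga3 (0.764), and no neighbouring intervals overlapped. These intervals cover counting error and not the spread between cells. The place of Itgb6 here rests on 1 cell, which held 99.4% of its reads. At puberty Itgb5 (34.0 RPKM) and Itgb6 (28.7) came next, while the intervals of Itgb3 (6.65) and Itga3 (6.18) overlapped, as did those of Itgb8 (3.18) and Itgb4 (2.93), and Itga2 was last at 1.49. In the adult Itgb6 (30.0 RPKM) was followed by Itga3 (5.93) and Itgb5 (3.02), and the intervals of Itgb3 (0.77) and Itgb4 (0.72) overlapped, as did those of Itga2 (0.10) and Itgb8 (0.03). Over all 6 β genes, Itgb1 made up 78.3%, 57.5% and 81.3% of the summed RPKM at the 3 stages. The pubertal share, like the place of Itgb5 at puberty, depends on 1 cell that held 66.5% of the Itgb5 reads. The median cell, thinned to 100000 reads so that depth was equal, had a read of 5 members when pre-pubertal (range 2 to 8), 4 when pubertal (0 to 6) and 3 when adult (0 to 6).

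**Figure D1:**
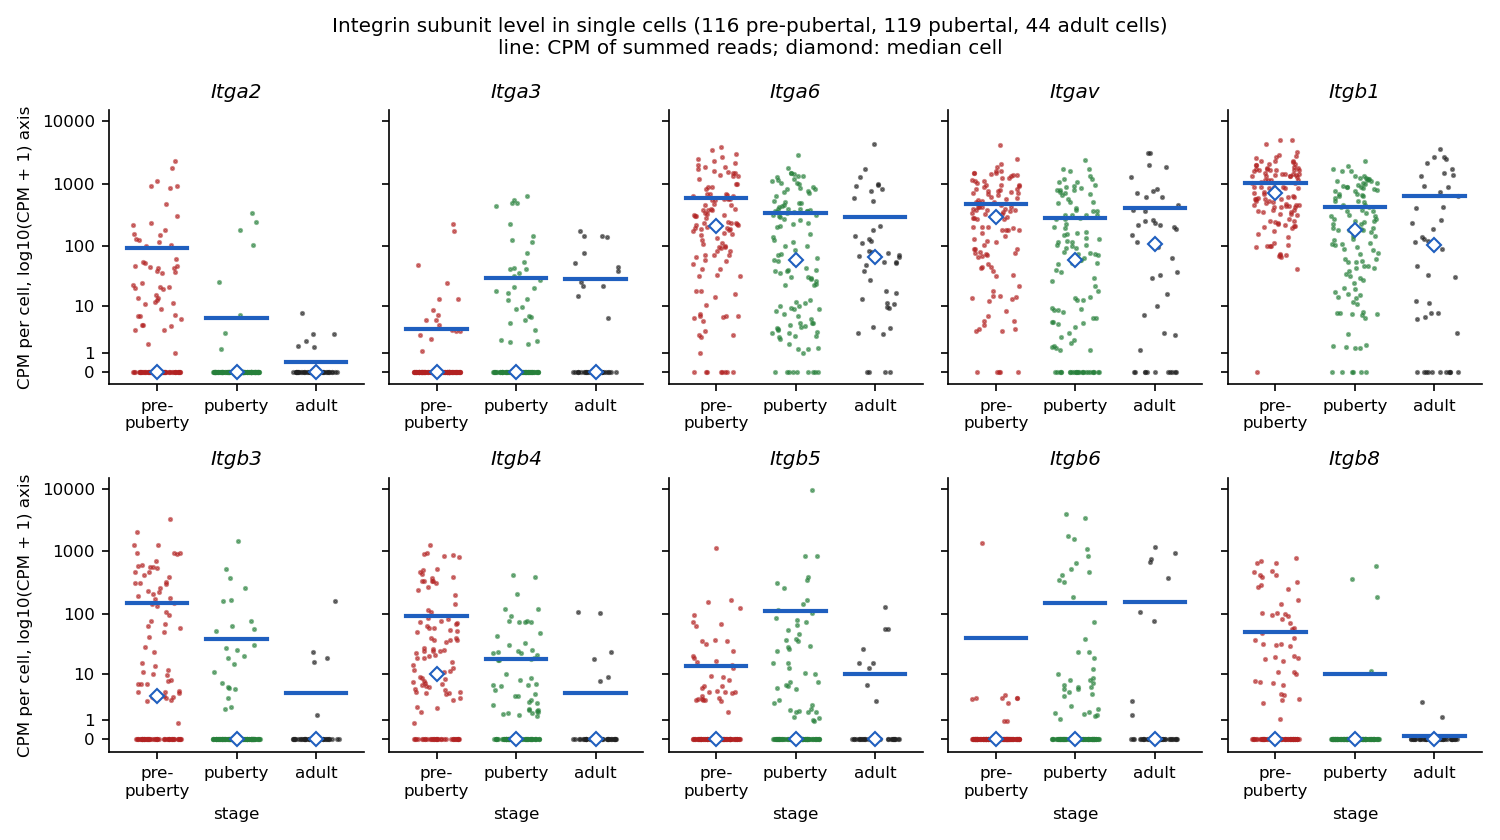
Level of each of the 10 members in every kept cell, in 10 panels with stage on the x axis and log10(CPM + 1) on the y axis. Each dot is 1 cell, the blue line is the CPM of the reads summed over the stage and the diamond is the median cell. The median cell sits above 0 at all 3 stages for Itga6, Itgav and Itgb1 and at pre-puberty for Itgb3 and Itgb4, and at 0 in all other cases.

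The α subunits fell into a pair that most cells carried and a pair that few did. Itga6, the laminin-binding subunit that pairs with β1 or β4 (Entrez 16403, chromosome 2, 71786886 to 71858427 in GRCm38), was at 586 CPM in pre-pubertal (579 to 594), 340 in pubertal (335 to 344) and 291 in adult cells (283 to 299). Single cells ranged from 0 to 3824, 2900 and 4372 CPM, with medians of 213, 59.9 and 67.8. The ranges of the 3 stages overlapped. It was detected in 83.6%, 74.8% and 79.5% of thinned cells and in 93.1%, 92.4% and 90.9% unthinned. Itgav, which carries the RGD-binding pairs (Entrez 16410, chromosome 2, 83722303 to 83806917), was at 473 CPM (466 to 480), 278 (275 to 282) and 416 (407 to 426), with median cells at 290, 59.3 and 107 and highest cells at 4133, 2414 and 3101. The lowest cell was again at 0 at each stage, and Itgav was detected in 89.7%, 68.1% and 70.5% of thinned cells (95.7%, 79.0% and 75.0% unthinned).

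Itga2, the collagen-binding partner of β1 (Entrez 16398, chromosome 13, 114833081 to 114932100), was highest in pre-pubertal cells among those kept. Its level was 94.9 CPM in pre-pubertal (92.0 to 98.0), 6.29 in pubertal (5.71 to 6.92) and 0.428 in adult cells (0.18 to 0.84, from 8 reads). It was detected in 39.7%, 5.04% and 2.27% of thinned cells, and unthinned in 46.6%, 6.72% and 13.6%. The median cell was at 0 at each stage, and the highest cells were at 2298, 338 and 7.51 CPM. At puberty 1 cell held 45.0% of the reads, and the level without it was 3.50 CPM. In that cell 11 of the 15 fibroblast and 10 of the 12 pan-epithelial markers were detected. Itga3, a laminin-binding partner of β1 (Entrez 16400, chromosome 11, 95044475 to 95076844), went the other way, at 3.71 CPM in pre-pubertal (3.14 to 4.35), 30.0 in pubertal (28.7 to 31.3) and 28.8 in adult cells (26.4 to 31.3). Its median cell was at 0 throughout, its highest cells were at 230, 632 and 176 CPM, and it was detected in 9.48%, 23.5% and 27.3% of thinned cells (14.7%, 28.6% and 29.5% unthinned). The highest pubertal Itga3 cell held 19.2% of the reads. In it 12 of the 15 fibroblast and 7 of the 12 pan-epithelial markers were detected.

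Among the β subunits, the sort marker Itgb1 (Entrez 16412, chromosome 8, 128685654 to 128733579) was at 1036 CPM in pre-pubertal (1026 to 1046), 428 in pubertal (423 to 433) and 631 in adult cells (619 to 642). The median cell was at 723, 180 and 104 CPM, and cells ranged from 0 to 5037, 2272 and 3559 CPM. The summed level was higher in the adult than at puberty while the median cell was lower. Itgb1 was detected in 99.1%, 86.6% and 70.5% of thinned cells (99.1%, 95.0% and 75.0% unthinned), so 13 adult cells gave no read of the sort marker at this depth. Above 40 RPKM, the level the study used to call Cd55 present, there were 101 of 116, 62 of 119 and 18 of 44 cells. Cd24a, the other gene of the sort, was at 85.0, 975 and 688 CPM, and 24.1%, 79.8% and 75.0% of thinned cells had a read of it.

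Itgb3, Itgb4 and Itgb8 were highest at pre-puberty and lowest in the adult. Itgb3, the partner of αv that binds vitronectin and other RGD proteins (Entrez 16416, chromosome 11, 104608000 to 104670476), was at 148.2 CPM (144.5 to 152.02), 38.5 (37.0 to 40.0) and 4.44 (3.54 to 5.50). It was detected in 49.1%, 16.8% and 9.09% of thinned cells, and in 56.0%, 20.2% and 11.4% unthinned. The highest cells were at 3286, 1447 and 158.04 CPM and the median cells at 3.84, 0 and 0. Single cells weighed on the later values, since 1 pubertal cell held 56.9% of the reads (16.8 CPM without it) and 1 adult cell 62.7% (1.69 CPM without it). Itgb4, the hemidesmosome subunit (Entrez 192897, chromosome 11, 115974725 to 116008412), was at 91.3 CPM (88.4 to 94.3), 18.1 (17.1 to 19.1) and 4.44 (3.54 to 5.50), with median cells at 9.90, 0 and 0 and highest cells at 1267, 428 and 109. It was detected in 56.0%, 29.4% and 11.4% of thinned cells (69.8%, 42.0% and 13.6% unthinned). Itgb4 is on a list of stage genes that the study picked on overlapping cells, so its direction here is not independent evidence. Itgb8, the other αv partner that frees TGF-β (Entrez 320910, chromosome 12, 119162803 to 119238276), was at 49.8 CPM (47.7 to 52.0), 9.86 (9.13 to 10.6) and 0.107 (0.0130 to 0.386, from 2 reads). It was detected in 37.1%, 3.36% and 0% of thinned cells, where 0 of 44 allows a share of up to 6.82%, and in 42.2%, 3.36% and 4.55% unthinned. Its median cell was at 0 at each stage and its highest cells at 774, 596 and 2.99 CPM.

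Itgb5 and Itgb6 had levels that a few cells carried. Itgb5, which with αv binds vitronectin (Entrez 16419, chromosome 16, 33829665 to 33949338), was at 13.7 CPM (12.6 to 14.9), 112 (109 to 114) and 9.90 (8.52 to 11.4), but 1 pubertal cell at 9459 CPM held 66.5% of the pubertal reads, and the level without it was 37.6 CPM. That cell was above the threshold for neither Krt14 nor Krt8 or Krt18, and 7 of 16 Schwann cell and 6 of 12 pan-epithelial markers were detected in it. The top cell held 43.4% of the Itgb5 reads at pre-puberty (7.80 CPM without it) and 55.7% in the adult (4.58 CPM without it). Its shares of thinned cells, which single cells do not set, were closer together at 21.6%, 27.7% and 13.6% (33.6%, 40.3% and 20.5% unthinned), and its median cell was at 0. Itgb6, the epithelial αv partner that frees TGF-β (Entrez 16420, chromosome 2, 60598292 to 60722603), was at 39.8 CPM (37.9 to 41.8), 146.9 (144.0 to 149.8) and 153.4 (147.9 to 159.1). At pre-puberty 1 cell at 1355 CPM held 99.4% of the reads, and the level of the other cells was 0.228 CPM. That cell was above the threshold for Krt14 alone, and 10 of 12 basal markers (Krt14 is on the list) were detected in it. Itgb6 was detected in 6.03%, 20.2% and 18.2% of thinned cells (8.62%, 33.6% and 20.5% unthinned), with a median cell of 0 and highest cells of 4018 CPM at puberty and 1182 in the adult.

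**Figure D2:**
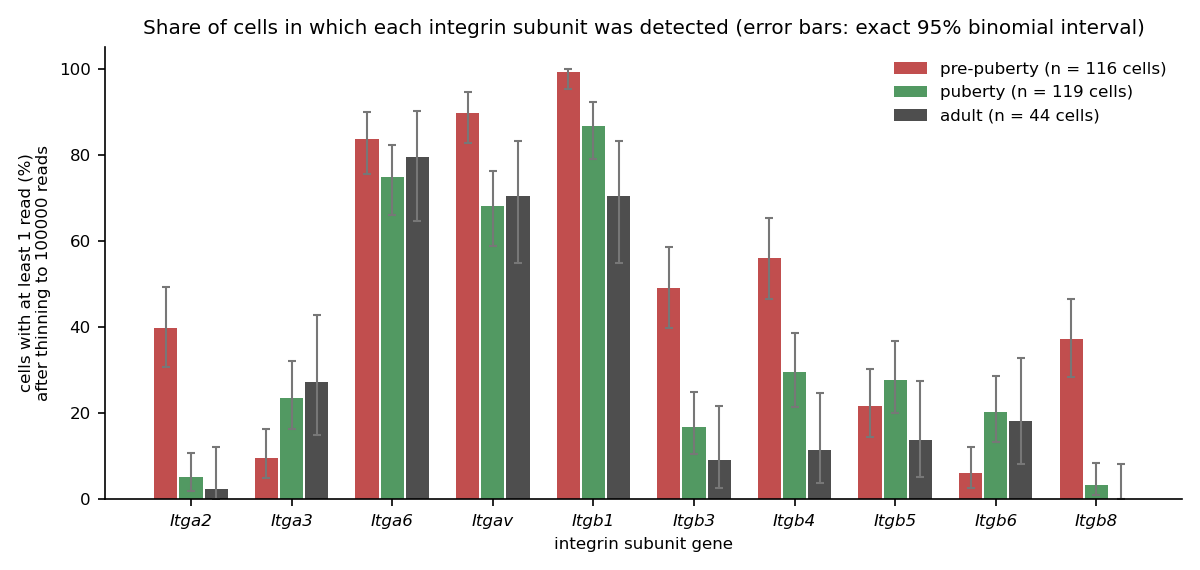
Share of thinned cells (100000 reads each) with at least 1 read of each member, in percent, for 116 pre-pubertal, 119 pubertal and 44 adult cells. Error bars are exact 95% binomial intervals, which cover counting error only. The bars of Itga2, Itgb3, Itgb4 and Itgb8 are tallest at pre-puberty, those of Itga3 and Itgb6 are shortest there, and Itgb1 reaches 99.1%, 86.6% and 70.5%.

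Stages were compared by the log2 ratio of summed CPM after adding 5 CPM, which understates the difference of low genes, and a member was counted past a log2 ratio of 1 in either direction. For pre-puberty over puberty 5 members were past it upwards, where 21.4% of 9868 genes at 10 CPM or more at either stage were: Itga2 at 3.15 (3.02 to 3.26), Itgb4 at 2.06 (1.95 to 2.17), Itgb8 at 1.88 (1.75 to 2.01), Itgb3 at 1.82 (1.73 to 1.90) and Itgb1 at 1.26 (1.23 to 1.29). Downwards there were 3, where 24% of all genes were: Itgb5 at -2.64 (-2.76 to -2.52), Itga3 at -2.01 (-2.16 to -1.85) and Itgb6 at -1.76 (-1.85 to -1.67). Itga6 at 0.78 and Itgav at 0.75 were below the fold. The member median was 1.02, against -0.12 over all these genes. The Itgb5 ratio was -1.19 without the 3 pubertal cells that held 6 or more Schwann cell markers, and the Itgb6 ratio was -4.42 without the top cell of each stage.

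For pre-puberty over the adult 4 members were past the fold upwards (31.7% of 9752 genes), namely Itga2 at 4.20, Itgb3 at 4.02, Itgb8 at 3.42 and Itgb4 at 3.35. The Itga2 and Itgb8 values rest on 8 and 2 adult reads and so depend on the added constant. Itga3 at -1.96 and Itgb6 at -1.82 were past it downwards (28.9% of genes), and Itga6 lay just inside it at 0.998 (0.94 to 1.05). The members in between were Itgb1 at 0.71, Itgb5 at 0.33 and Itgav at 0.18, and the median was 0.85 against 0.03 over all genes. For puberty over the adult, which shares its cells with the other comparisons, 5 members were past the fold upwards (28.4% of 9463 genes) and 0 downwards (20.6%). Those were Itgb5 at 2.97, Itgb3 at 2.20, Itgb8 at 1.54, Itgb4 at 1.29 and Itga2 at 1.06, of which Itga2 and Itgb8 were under 10 CPM at both stages, and Itga2 was at 0.67 without the top cell of each stage. In cells of 200000 to 600000 reads alone Itgb3 was at 0.57 and Itgb4 at 0.59, below the fold, while Itgb6 was at 2.42, Itga3 at 1.43, Itgav at -1.43 and Itgb1 at -1.26. Itga3 at 0.05 and Itgb6 at -0.06 had intervals that included 0, while Itgav at -0.57 and Itgb1 at -0.55 were lower at puberty. The upward count against the adult, 4 of 10 genes, is close to the share of all genes, and the members were chosen with these results known.

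Pre-pubertal cells with numbers 1 to 37 passed the coverage filter less often than those from 38 on (12 and 104 kept cells), and some members differed between these sets. Itgb1 was at 1039 and 1035 CPM and Itga2 at 109 and 90.2 CPM. Itgb4 was at 16.6 CPM in the first set and 117 in the second, Itgb8 at 6.00 and 65.1 CPM, Itgb3 at 81.1 and 172 CPM, and Itga6 at 753 and 528 CPM. The labels do not say what divides the sets. With cells from 38 on alone, the counts of members past the fold against both later stages were the same.

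The proteins that integrins bind and act through were given by lists, whose counts stand beside the shares of all genes given above, 21.4% upwards and 24% downwards for pre-puberty over puberty and 31.7% and 28.9% for pre-puberty over the adult. Of 16 other integrin subunits 3 were past the fold upwards and 3 downwards in each comparison, and 7 and 6 of them were at 10 CPM or more. Among these, Itga1, a collagen-binding subunit, was at 140, 3.84 and 5.30 CPM at the 3 stages, Itga4, which binds fibronectin, at 102, 1.28 and 0.0535 CPM, and the laminin-binding Itga7 at 43.0, 3.43 and 0 CPM. Itga1 and Itga4 also stand on the study's list of stage genes. Of 22 matrix ligands 9 were higher and 8 lower than at puberty, and 11 and 5 against the adult. Col3a1, a fibrillar collagen, was at 5283, 528 and 265 CPM and Nid1, a basement membrane linker, at 1721, 260 and 455 CPM, while Spp1, the RGD protein osteopontin, was at 9.70, 414 and 3035 CPM with 84.3%, 83.7% and 84.9% of its reads in 1 cell of each stage. Of 25 adaptors and kinases 8 were higher and 3 lower at pre-puberty than at puberty (median 0.66), and 8 and 6 against the adult (median 0.23), with the talin-binding Vcl at 921, 542 and 578 CPM and the actin crosslinker Actn1 at 47.7, 234 and 490 CPM. Of the 6 hemidesmosome partners of Itgb4, 1 was higher and 1 lower than at puberty, and 1 and 3 against the adult, where the median was -0.84. The one above puberty was Dst, a linker to the cytoskeleton, at 1307, 390 and 730 CPM, and the linker Plec was at 1207, 822 and 401 CPM. Of 8 measured genes of latent TGF-β and its carriers, the cargo of the Itgb6 and Itgb8 pairs, 2 were higher and 0 lower than at puberty, and 2 and 2 against the adult.

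Keratin classes were then set by a threshold of 40 RPKM, Krt14 being the basal keratin and Krt8 and Krt18 the luminal pair. At puberty 5 cells were above it for Krt14 alone (Krt14-only), 24 for Krt14 and Krt8 or Krt18 (double-positive) and 80 for Krt8 or Krt18 alone (Krt8/18-only), and in the adult 5, 14 and 22. A class is a range and not a cell type, and between 20 and 80 RPKM lay 4, 9 and 6 pubertal and 5, 7 and 6 adult cells for Krt14, Krt8 and Krt18. Of 12 basal markers the median was 10 in pubertal Krt14-only cells, 9 in double-positive and 0 in Krt8/18-only cells, and 11, 10 and 2 in the adult.

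At puberty Itga6, Itgav and Itga3 were higher in the Krt14-only cells, and Itgb1 was nearly level. Itga6 was at 849 CPM in these cells and 231 in Krt8/18-only cells, a log2 ratio of 1.86 (1.78 to 1.93). The 5 Krt14-only cells read 30.2, 3.92, 835, 1351 and 1470 CPM, against a range of 0 to 1290 and a median of 39.6 in Krt8/18-only cells, so the classes overlapped. Itgav was at 523 and 198 CPM (1.38, 1.29 to 1.47), with the same 5 cells at 80.5, 2.61, 720, 378 and 1328 CPM and the Krt8/18-only median at 12.9. Cells 3 to 5 in this order were high for both genes, and the others low for both. Itga3 was at 104 and 24.1 CPM (1.90), carried by cells at 435, 148.1 and 43.2 CPM beside 2 cells at 0. The sort marker Itgb1 was at 430 and 381 CPM (0.17, 0.08 to 0.26), and its 5 cells at 12.1, 257, 167, 1018 and 270 CPM lay within the range of the Krt8/18-only cells. Double-positive cells had 464 CPM of Itga6, 481 of Itgav, 39.0 of Itga3 and 523 of Itgb1.

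The other members at puberty rested on few cells. Itgb5 had a ratio of 1.59 and Itgb8 of 3.00, but 1 Krt14-only cell held 99.4% of the Itgb5 reads of its class and 1 cell all of the Itgb8 reads. Without the top cell of each class the Itgb5 ratio was -2.28. Itgb8 had 0 reads in the 80 Krt8/18-only cells, so its 35.0 CPM in the Krt14-only cells was at least 524-fold higher, with the floor set at 3 reads over the class. Such bounds cover counting error in the summed reads and not the spread between cells, so with 5 Krt14-only cells they do not hold for the classes. Itga2 had 0 reads in the Krt14-only cells and 9.16 CPM in Krt8/18-only cells, at least 12.5-fold lower in the summed reads of the former. Only 5 of the 80 thinned Krt8/18-only cells had a read of Itga2. Itgb3 likewise had 0 reads and 14.1 CPM, at least 19.3-fold lower, but over all 29 Krt14-positive cells it was at 28.8 CPM and so higher than in Krt8/18-only cells (0.82, 0.63 to 1.01). Itgb4 was at 17.9 and 24.5 CPM (-0.37, -0.71 to -0.03). In all, 5 of 10 members were past the fold upwards (21.1% of 8661 genes) and 2 downwards (51.7%), with a median of 0.77 against -1.16 for all genes. With double-positive cells added to the numerator, a choice made after the values were seen, 4 were past it upwards (21.8% of 9254 genes), namely Itgb8 at 2.70, Itgav at 1.29, Itga6 at 1.25 and Itga3 at 1.03. Downwards there were 3 (25.5% of genes), Itgb6 at -2.53, Itgb4 at -1.51 and Itga2 at -1.21, while Itgb5 was at 0.58. The member median was then 0.70 against -0.11 over all genes, so the all-gene median of -1.16 belongs to the class of 5 cells.

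Itgb6 was highest in Krt8/18-only cells at both later stages. In the adult it had 0 reads in the 5 Krt14-only cells and 275 CPM (264 to 285) in the 22 Krt8/18-only cells. In the summed reads it was thus at least 187-fold lower in the former, a bound that covers counting error and not the spread between 5 cells. Double-positive cells had 15.4 CPM. All 5 adult cells above 40 RPKM of Itgb6 were Krt8/18-only. At puberty 11 of the 12 cells above it were Krt8/18-only and the other was Krt14-only. That cell, at 421 CPM, held 99.2% of the reads of its class, where Itgb6 was at 123 CPM, against 211 CPM in Krt8/18-only and 3.90 CPM in double-positive cells. Even in Krt8/18-only cells the gene was detected in 22.5% of thinned cells at puberty and 27.3% in the adult, and the median cell was at 0.

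The other adult class values were smaller or less steady. Itga6 was at 381 CPM in Krt14-only and 138 in Krt8/18-only cells (1.43, 1.26 to 1.61), with the 5 Krt14-only cells at 38.8, 82.9, 4.09, 1266 and 931 CPM, and under a stricter coverage filter its ratio was -1.67. Itgav was at 828 and 389 CPM (1.08, 0.96 to 1.19), with cells at 385, 0, 1265, 10.0 and 1875 CPM. Unlike at puberty, the Krt14-only cells highest for Itga6 were not all highest for Itgav. Itgb1 was at 645 and 378 CPM (0.76, 0.64 to 0.89), with cells at 884, 931, 636, 90.1 and 422 CPM, and its median cell was at 636 CPM in this class, 83.1 in double-positive and 22.1 in Krt8/18-only cells. Of the members 2 were past the fold upwards (24.1% of 7414 genes) and 2 downwards (58.4%), the latter being Itgb6 and Itgb3, and Itgb3 was under 10 CPM in both classes (0 and 6.56). With double-positive cells added as at puberty, 4 members were past the fold upwards in the adult (33.5% of 8247 genes), namely Itga3 at 2.11, Itga6 at 1.80, Itgb5 at 1.28 and Itgb1 at 1.07, and only Itgb6 downwards at -4.10 (37.3% of genes), while Itgav was at -0.02. Of the 6 hemidesmosome partners 4 were higher in Krt14-only cells and 0 lower at puberty (21.1% and 51.7% of all genes). In the adult 4 were higher and 1 lower (24.1% and 58.4%). Krt14 itself is on the list and sets the class, so its direction was fixed in advance at both stages.

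**Figure D3:**
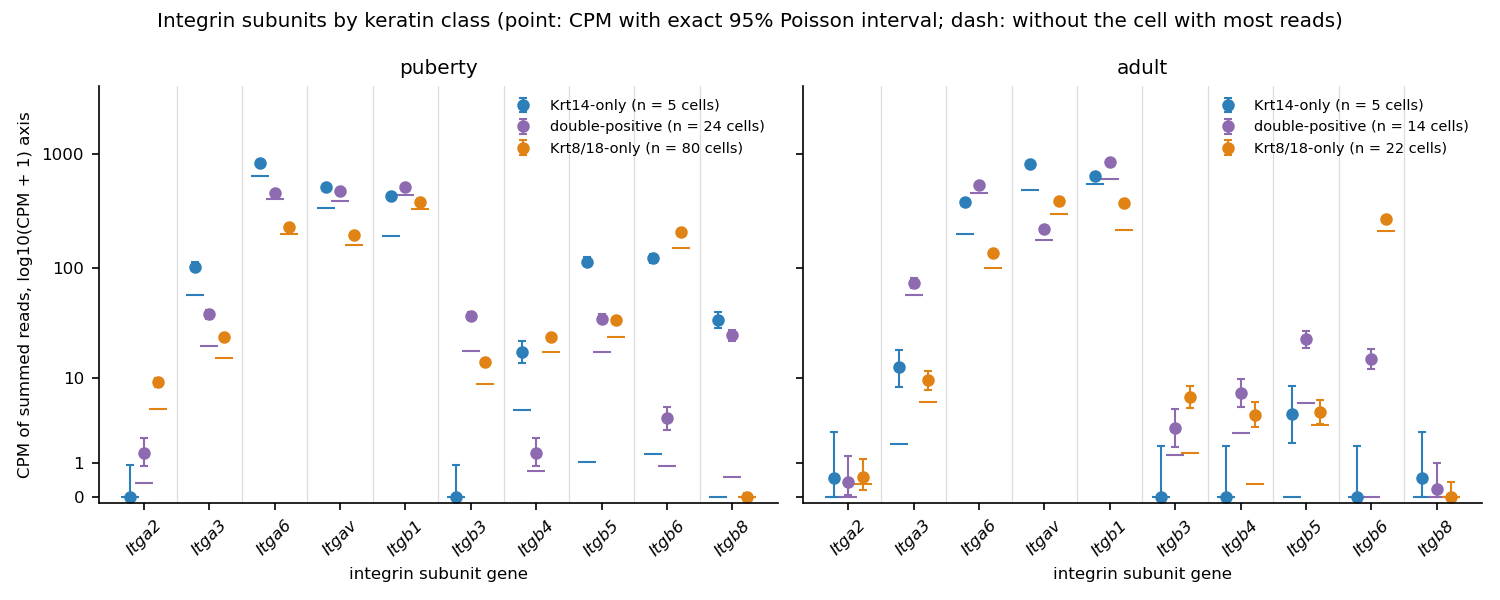
Level of each member, in CPM of the reads summed over a keratin class, on a log axis, at puberty (left; 5 Krt14-only, 24 double-positive and 80 Krt8/18-only cells) and in the adult (right; 5, 14 and 22 cells). Points carry exact 95% Poisson intervals, and a dash gives the level without the cell with the most reads. Itga6 lies highest in Krt14-only cells at puberty and lowest in Krt8/18-only cells at both stages, and the Itgb6 points lie highest in Krt8/18-only cells.

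Within the pre-pubertal cells, 17 were above the threshold for Krt14 (10 of them for Krt14 alone), 2 for Krt8 or Krt18 alone and 97 for neither. The median Krt14-positive cell had 10 of 12 basal markers (Krt14 among them) and 11 of 16 Schwann cell markers. The median cell with neither had 1 and 12. Itga6, Itgav and Itgb1 were detected in all 17 thinned Krt14-positive cells. Itga6 was at 809 CPM there and 536 in cells with neither, but 1 cell held 60.5% of the former reads (391.5 CPM without it). In summed reads Itgb1 was lower in the Krt14-positive cells, at 637 CPM against 1102 (-0.79, -0.85 to -0.73), and so were Itga2 at 8.51 against 113 CPM (-3.12) and Itgb4 at 25.8 against 105 CPM (-1.84). For Itgb1 single cells ranged from 69.3 to 5037 CPM in the Krt14-positive cells and from 0 to 4938 CPM in cells with neither. The 2 sets thus overlapped, and summed reads give deeper cells more weight. Itgav was level at 474 and 464 CPM. Upwards, Itga3 at 1.25 and Itgb6 at 5.61 were past the fold, each through 1 cell. For Itgb6 it was the cell named above, and for Itga3 it held 71.4% of the reads of the 17 cells, with 11.9 CPM in all and 3.54 CPM without it. In this count 2 members were past the fold in each direction, where 20.7% of 9058 genes were upwards and 30.8% downwards. Both Krt8/18-only cells had Itgb1 (173 and 2281 CPM), Itgb3 (322 and 929 CPM), Itga6 (33.0 and 1516 CPM) and Itgav (132 and 1408 CPM), and neither had a read of Itgb4.

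Subunit pairs were counted as thinned cells with at least 1 read of both genes, over 9 pairs known to form. RNA of both genes in a cell does not show that the proteins pair. In pre-pubertal cells Itgav with Itgb1 was found in 88.8% (81.6 to 93.9) and Itga6 with Itgb1 in 82.8% (74.6 to 89.1), and these were the only pairs in 50% of cells or more. Itga6 with Itgb4 was found in 47.4% (38.1 to 56.9), Itgav with Itgb3 in 46.6%, Itga2 with Itgb1 in 39.7% and Itgav with Itgb8 in 33.6%. Since Itgb1 was read in 115 of the 116 cells, the share of each of its pairs nearly repeats that of the α subunit. It was read in 100% of cells without Itga6 and of those without Itgav, and in 98.6% of those without Itga2. At puberty the same pairs led in the other order, with Itga6 and Itgb1 in 68.1% and Itgav and Itgb1 in 58.8%, and in the adult they were in 59.1% and 50.0%. At puberty Itgb1 was in 91.0% of cells with Itga6 and 73.3% without, and in 86.4% with Itgav and 86.8% without. In the adult the values were 74.3% and 55.6% for Itga6, and 71.0% and 69.2% for Itgav. Itga2 with Itgb1 was in 4.20% of pubertal and 0% of adult cells, and Itgav with Itgb8 in 2.52% and 0%, where 0 of 44 again allows up to 6.82%. Itgav with Itgb6 was in 4.31% of pre-pubertal, 13.4% of pubertal and 15.9% of adult cells.

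The 2 partners of Itga6 were read in unequal shares of its cells. Of 97 pre-pubertal cells with a read of Itga6, 41 had Itgb1 and not Itgb4, 0 had Itgb4 and not Itgb1, 55 had both and 1 had neither. At puberty the 89 such cells divided into 55, 2, 26 and 6, and in the adult the 35 divided into 23, 0, 3 and 9. Per length, Itgb1 was 16.7, 34.9 and 209 times Itgb4 at the 3 stages. Itgb4 was detected in 56.7% of pre-pubertal cells with Itga6 and in 52.6% of those without, so it was not confined to cells that carried its partner. Of cells with Itgav, 73 of 104 (70.2%), 46 of 81 (56.8%) and 13 of 31 (41.9%) also had at least 1 of Itgb3, Itgb5, Itgb6 and Itgb8.

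By keratin class, Itga6 with Itgb1 was in 4 of 5 Krt14-only, 75.0% of double-positive and 65.0% of Krt8/18-only cells at puberty, and in 4 of 5, 71.4% and 45.5% in the adult. Itgav with Itgb1 was in 4 of 5, 83.3% and 50.0% at puberty, and in 4 of 5, 57.1% and 36.4% in the adult. Itga6 with Itgb4 was in 30.0% of pubertal Krt8/18-only cells (20.3 to 41.3) and 8.33% of double-positive cells, and in 4.55% of the adult Krt8/18-only cells. Itgav with Itgb6 was in 12.5% of pubertal (6.16 to 21.8) and 22.7% of adult (7.82 to 45.4) Krt8/18-only cells. Itgav with Itgb8 was in 0 of the 80 pubertal Krt8/18-only cells, which allows up to 3.75%. With reads not thinned, 4 pairs instead of 2 reached 50% of pre-pubertal cells.

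**Figure D4:**
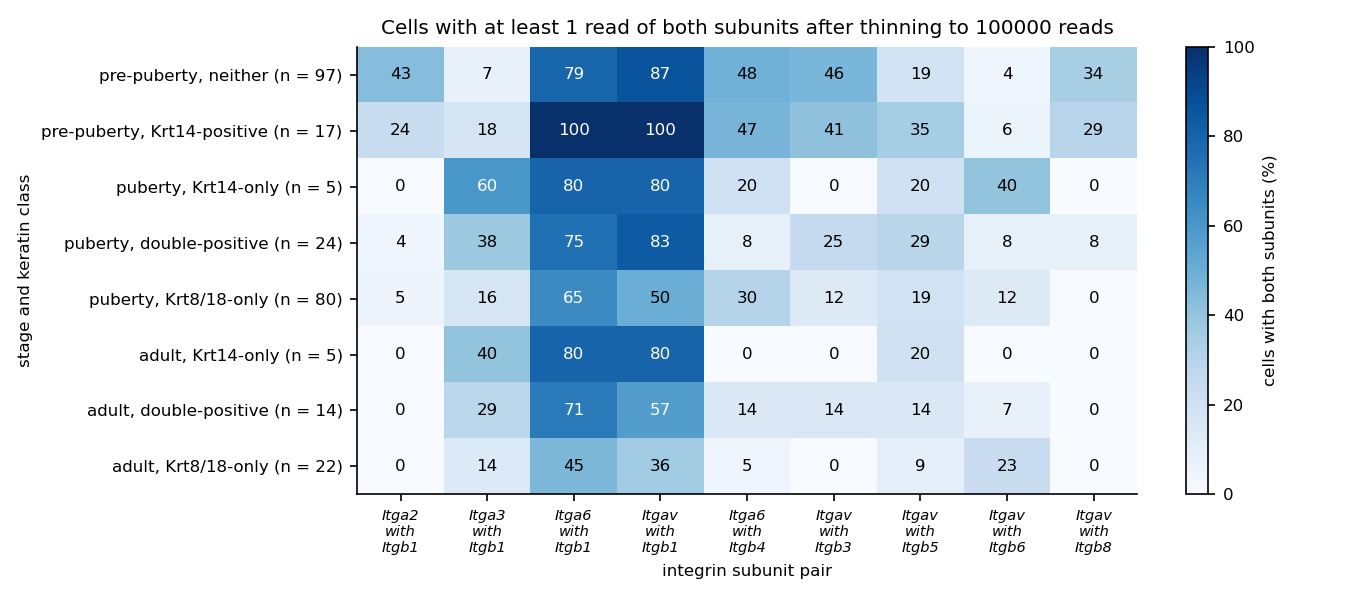
Share of thinned cells, in percent, with at least 1 read of both subunits, for 9 pairs (columns) in 8 sets of cells (rows, with the number of cells in each). Darker squares mean more cells. Itga6 with Itgb1 and Itgav with Itgb1 form the dark columns in most sets, while Itga6 with Itgb4, Itgav with Itgb3, Itgav with Itgb8 and Itga2 with Itgb1 are darkest in the pre-pubertal sets.

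Members varied together only weakly from cell to cell. On log2(CPM + 10) of thinned reads, which share depth and stage, Pearson's r of Itgav with Itgb1 was 0.40 over the 116 pre-pubertal cells, 0.26 over the 119 pubertal cells and 0.10 over the 44 adult cells, and that of Itga6 with Itgb1 was 0.12, 0.32 and 0.05. These values describe sparse counts and were not tested. No gene reached an r of 0.5 with Itga6, Itgav, Itgb1 or Itgb4 at pre-puberty, or with Itga6, Itgav or Itgb1 at puberty. The highest r was 0.41 at pre-puberty and 0.46 at puberty. In the adult, over 3909 genes, those most like Itga6 were Srsf11 (0.59), Wac (0.57) and Hp1bp3 (0.52). Most like Itgav were Atp2a2 (0.53) and Mlph (0.51), and most like Itgb1 were Nap1l1, Atp1b3 and Irf1 (0.55 each). These are the highest of many values over only 44 cells, where r scatters more than over the larger stages. They therefore do not show partners particular to the adult.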

How the data were processed

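RNA of single cells was measured by Fluidigm C1 capture and Nextera XT libraries, without molecular identifiers or strand. The authors deposited whole-number read counts per Entrez gene and cell, not normalised, and a length in bases for each gene. The submitters' processing notes name Subread (1.4.6), featureCounts and mm10, and the study's methods name the aligner's built-in RefSeq annotation. How reads shared by similar genes were counted is not given in the sources used here. The wells were inspected by the authors, so no doublet caller was run, and no pair of cells held identical counts. Some wells held markers of several cell types, such as 1 pubertal well with 8 Schwann cell, 8 pan-epithelial and 13 fibroblast markers. Whether such wells held more than 1 cell was not tested. A table of the whole series was not used, since it repeats the per-cell counts.

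Of 27179 genes, 25275 matched the RefSeq annotation of GRCm38.p6. Removing the 1904 others, 15 mitochondrial and 119 ribosomal protein genes left 25141, as in the study's methods. Of the cells, 80.6%, 87.5% and 66.7% of the pre-pubertal, pubertal and adult ones passed the filter, with medians of 296600, 574825 and 334667 reads. Counts were summed over cells and given as CPM and, with the deposited length, as RPKM. CPM have exact Poisson intervals and shares have exact (Clopper-Pearson) binomial ones. Where no cell or read was found, the limit is 3 counts. Ratios added 5 CPM. No p-value was computed, as each stage is 1 sample.

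The members and the gene lists were chosen with earlier results of these data known. Named genes were the members, up to 3 genes of the largest CPM in each other list, the keratins, the sort marker and cell type markers, and up to 3 genes most like a member detected in at least 50% of thinned cells (r of at least 0.5 among genes detected in at least 20%). Alternatives were the added constant, cell weights, TMM scaling, coverage filters, thinning, the keratin threshold, the top cell, cells from 38 on, cells of 200000 to 600000 reads, cells with other types' markers and, chosen after seeing the data, all Krt14-positive cells and members at 10 CPM or more. The steps were tested on simulated data. Python 3.11.15 with numpy 2.4.6, pandas 2.3.3, scipy 1.17.1 and matplotlib 3.10.9 was used, and R 4.3.3 with edgeR 4.0.16 for TMM factors only.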

Additional observations from a re-analysis of the deposited data

Results flagged for a closer look

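The cells below the coverage filter are used in no comparison, and they too held reads of the members. The 10 members summed to 2162 CPM in the 28 such cells of pre-puberty, 866 CPM in the 17 of puberty and 741 CPM in the 22 of the adult, against 2536, 1407 and 1539 CPM in the kept cells. Itgb1 was at 862, 164 and 101 CPM in them and Itga6 at 671, 406 and 112 CPM. Itgb6 was at 118 CPM in the pre-pubertal ones, from 63 reads, and at 2.67 and 0 CPM in the later ones. Below the filter Itga2 was at 24.4, 234 (175 reads) and 9.17 CPM, against 94.9, 6.29 and 0.428 CPM in kept cells. The order of stages seen for Itga2 in kept cells thus did not hold there. Itgb5 was at 58.2, 6.68 and 303 CPM below the filter, against 13.7, 112 and 9.90 CPM in kept cells. Each stage is 1 sample, so outlying samples within a group were not looked for.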

How the results depend on the processing

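With cells of 200000 to 600000 reads, 16 of the 19 stage ratios past the fold stayed past it, and 1 member instead of 2 was lower for pre-puberty over the adult (Itga3 at -0.77) and 2 instead of 0 for puberty over the adult, and with members at 10 CPM or more alone, a choice made after seeing the data, 3 instead of 5 were higher for the latter. For Krt14-only over Krt8/18-only cells at puberty, 3 members were higher and 4 lower without the top cell of each class, 3 were higher at a keratin threshold of 20 RPKM, and 1 was lower with members at 10 CPM or more. In the adult, 1 was higher with equal weight for each cell, under a stricter filter (200000 reads and 2500 genes), with thinned reads and without the top cell, 0 at 20 RPKM and 4 with all Krt14-positive cells, and 1 was lower without the top cell, with all Krt14-positive cells and with members at 10 CPM or more. The sign turned for Itgb5 at puberty (-2.28 without the top cell), Itgb3 at puberty (0.82) and Itgav in the adult (-0.023) with all Krt14-positive cells, and Itga6 in the adult (-1.67 under the stricter filter). Pairs in 50% of cells or more numbered 4 at pre-puberty and 2 in adult Krt8/18-only cells with reads not thinned, 0 in pubertal Krt8/18-only and adult double-positive cells at 5 reads or more, and 1 in adult Krt8/18-only cells under the stricter filter. The cause of these moves was not tested, beyond the cells left out by each choice. Of all other values, 132 counts and 284 single values kept their size, and 252 single values moved by more than their counting interval. No paired analysis was possible because the labels number cells only and name no animal that stages share. Mice, sorts and chips cannot be told apart from stage, and levels under the 3-read floor (0.0737, 0.0438 and 0.160 CPM) are below what this depth shows.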
